A study of Rattus norvegicus with 62 samples.

Results

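The genes described here are 10 members of the unfolded protein response of the endoplasmic reticulum (ER) and of the amino acid response: Hspa5, Hsp90b1, Pdia4, Calr, Herpud1, Xbp1, Ddit3, Atf4, Asns and Trib3. They were taken by symbol from the 14217 genes that have an array probe set annotated to a single symbol. All 10 were measured, by 12 probe sets, of which Trib3 has 3; where a gene had several, the brightest on average stands for it. Their RNA was followed in the livers of male Crj:CD(SD)IGS rats through a liver cancer protocol in which an initiator is followed by a promoter. Dosing with an initiator or its vehicle, methylcellulose (MC), lasted 1 or 2 weeks, and a break of 2 weeks followed. Drinking water with 500 ppm of phenobarbital (PB), the promoter, then ran for 6 weeks, and part of the liver was removed 1 week after it began. That resected piece is the 5w sample, and the liver of the same animal at the end of the study is the 10w sample. The 5w samples of the PB groups therefore had 1 week of PB, and the 10w samples come from livers that had regrown after the resection.

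Each week has 7 treatments. MC/water received both vehicles and is the only group without PB. MC/PB received vehicle and then PB. The initiated groups, all of which then received PB, were given diethylnitrosamine at 3 mpk (DEN3/PB) or 30 mpk (DEN30/PB), thioacetamide at 45 mpk (TAA/PB), methapyrilene at 100 mpk (MP/PB) or acetaminophen at 1000 mpk (APAP/PB). There are 5 animals on DEN3, on TAA and on MP and 4 in every other group, which makes 31 animals, 62 samples and 14 groups. PB was studied by setting MC/PB against MC/water, and each initiator by setting its group against MC/PB. The initiated livers as a whole were studied as the mean of the 5 initiated groups against MC/water, which takes in both the initiator and PB.

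When unfolded proteins build up in the ER, the sensors IRE1, PERK and ATF6 start a programme that raises chaperones (Hspa5, or BiP, Hsp90b1, or GRP94, and Calr, or calreticulin), the disulfide isomerase Pdia4 and the degradation factor Herpud1. Xbp1, Atf4 and Ddit3 (CHOP) are its transcription factors. PERK shares its target, the initiation factor eIF2 alpha, with GCN2, the kinase that senses uncharged tRNA when amino acids run short, so both routes raise ATF4 and its targets, among them Asns, which makes asparagine, and Trib3, a pseudokinase that holds back ATF4, CHOP and AKT signalling. Hepatocytes secrete large amounts of plasma protein and carry a high level of this machinery at rest. Arrays read total mRNA of a gene, so the splicing of Xbp1 and the translation of Atf4, through which both factors are mainly controlled, were not measured.

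The promoters of 5 members are shown because each of these genes passed a test in the results below. They are RefSeq sequences of build GRCr8, from 250 bases before to 50 after the annotated start of the gene, 5′ to 3′ along the gene. All 10 members had an entry. Capitals mark matches, on either strand, to the ER stress response element (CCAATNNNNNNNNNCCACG), to its second form, ERSE-II (ATTGGGCCACG in Herpud1, searched with any base at the sixth position), and to the C/EBP-ATF response element (TGATGNAA).
Hspa5, chr3:38452766-38453065, plus strand: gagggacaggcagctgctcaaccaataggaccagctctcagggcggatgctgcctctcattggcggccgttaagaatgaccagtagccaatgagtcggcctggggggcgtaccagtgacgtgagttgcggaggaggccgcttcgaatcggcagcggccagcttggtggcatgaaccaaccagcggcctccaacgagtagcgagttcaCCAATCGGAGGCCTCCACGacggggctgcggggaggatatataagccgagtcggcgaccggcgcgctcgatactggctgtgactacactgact
Hsp90b1, chr7:23012244-23012543, minus strand: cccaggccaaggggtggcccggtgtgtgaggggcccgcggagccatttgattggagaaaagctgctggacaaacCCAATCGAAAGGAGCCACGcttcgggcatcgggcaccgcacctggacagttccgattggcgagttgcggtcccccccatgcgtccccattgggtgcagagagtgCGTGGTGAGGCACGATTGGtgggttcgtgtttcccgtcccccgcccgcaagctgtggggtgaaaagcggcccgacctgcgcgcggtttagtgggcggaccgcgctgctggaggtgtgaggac
Herpud1, chr19:10614658-10614957, minus strand: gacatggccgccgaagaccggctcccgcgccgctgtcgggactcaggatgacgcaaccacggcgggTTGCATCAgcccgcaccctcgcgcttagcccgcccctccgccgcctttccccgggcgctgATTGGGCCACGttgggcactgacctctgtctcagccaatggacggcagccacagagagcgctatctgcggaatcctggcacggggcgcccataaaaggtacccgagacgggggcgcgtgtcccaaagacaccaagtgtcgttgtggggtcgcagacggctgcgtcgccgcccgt
Asns, chr4:36769366-36769665, minus strand: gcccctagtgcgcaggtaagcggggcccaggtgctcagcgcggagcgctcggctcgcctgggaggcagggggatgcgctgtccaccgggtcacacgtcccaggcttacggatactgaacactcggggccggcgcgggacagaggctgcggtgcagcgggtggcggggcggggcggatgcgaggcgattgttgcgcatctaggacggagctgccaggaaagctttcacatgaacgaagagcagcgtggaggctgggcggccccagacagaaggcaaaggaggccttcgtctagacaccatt
Trib3, chr3:161275484-161275783, minus strand: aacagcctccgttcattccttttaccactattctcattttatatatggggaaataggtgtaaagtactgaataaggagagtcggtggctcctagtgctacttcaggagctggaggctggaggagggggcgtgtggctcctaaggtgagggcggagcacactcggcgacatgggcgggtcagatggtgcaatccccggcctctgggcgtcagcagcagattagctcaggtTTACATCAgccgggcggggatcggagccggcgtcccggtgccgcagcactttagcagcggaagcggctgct
The first element was found in 4 of the 10 member promoters, and in 0.0657% of 33469 RefSeq promoters of the same length. It starts 43 bases before the start in Hspa5, 65 bases before it in Xbp1, and 176 and 72 bases before it in Hsp90b1, whose nearer copy is on the other strand, as is the copy 232 bases before the start of Calr. The second form was in Herpud1 alone of the 10, 124 bases before the start, against 0.0508% of all promoters. The C/EBP-ATF letters were in Herpud1 and Trib3, 184 and 21 bases before the start and on the other strand in both; 3.98% of all promoters hold them, so that match is common. The Asns window held no match to these letters. The matches of the different elements do not overlap, and a match is a description of the letters, not evidence of binding.

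Signals are the deposited MAS5 intensities. Each array had a 2% trimmed mean between 500.23 and 500.27, and 49.87% to 54.84% of its probe sets reached a signal of 100, the level used here as the minimum on at least 4 arrays. The 10 members passed that minimum in every fit, and Asns alone among them fell below 100 anywhere, on 3 of 62 arrays. The arrays fall into 2 sets of 30 and 32 that stand apart on the largest component of variation within groups (14.83% of it). Each group has 2 or 3 arrays in each set. No label names these sets, but they follow the replicate number, with 1 and 3 in set 1 and 2 and 4 in set 2. Values within each set are given beside the called member differences. Of 10 hepatocyte markers, the 9 with a probe set, such as Alb and Apoa1, were above 100 on every array. In whole liver, fewer cells of a type and less RNA per cell cannot be told apart. The labels name the animals as separate, so spread between samples of a group takes in differences between animals and between the array sets. Set 2 differed from set 1 in 34.2% of all genes at an adjusted p under 0.05. Because the sets were drawn from these same values, differences between them were favoured in advance. The share and the member differences that follow are therefore a description, not a test. On the log2 scale set 2 differed by 0.19 ± 0.05 (SE) in Pdia4 and -0.16 ± 0.03 in Calr. For Xbp1 and Atf4 the differences were 0.20 ± 0.06 and 0.18 ± 0.05. The other members did not pass.

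The 4 chaperones passed no test with PB or with an initiator, Herpud1 was lower with PB at 5w, and Asns and Trib3 were higher with PB at 10w. Between 5w and 10w Herpud1, Hspa5, Hsp90b1 and Trib3 rose. Xbp1, Ddit3 and Atf4 mRNA passed no test between treatments. All tests below are two-sided limma tests on log2(signal + 25), with p adjusted over all genes tested by the Benjamini-Hochberg method and a threshold of 0.05. Differences are given on that log2 scale with their SE, so those of low signals are understated.

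**Figure D1:**
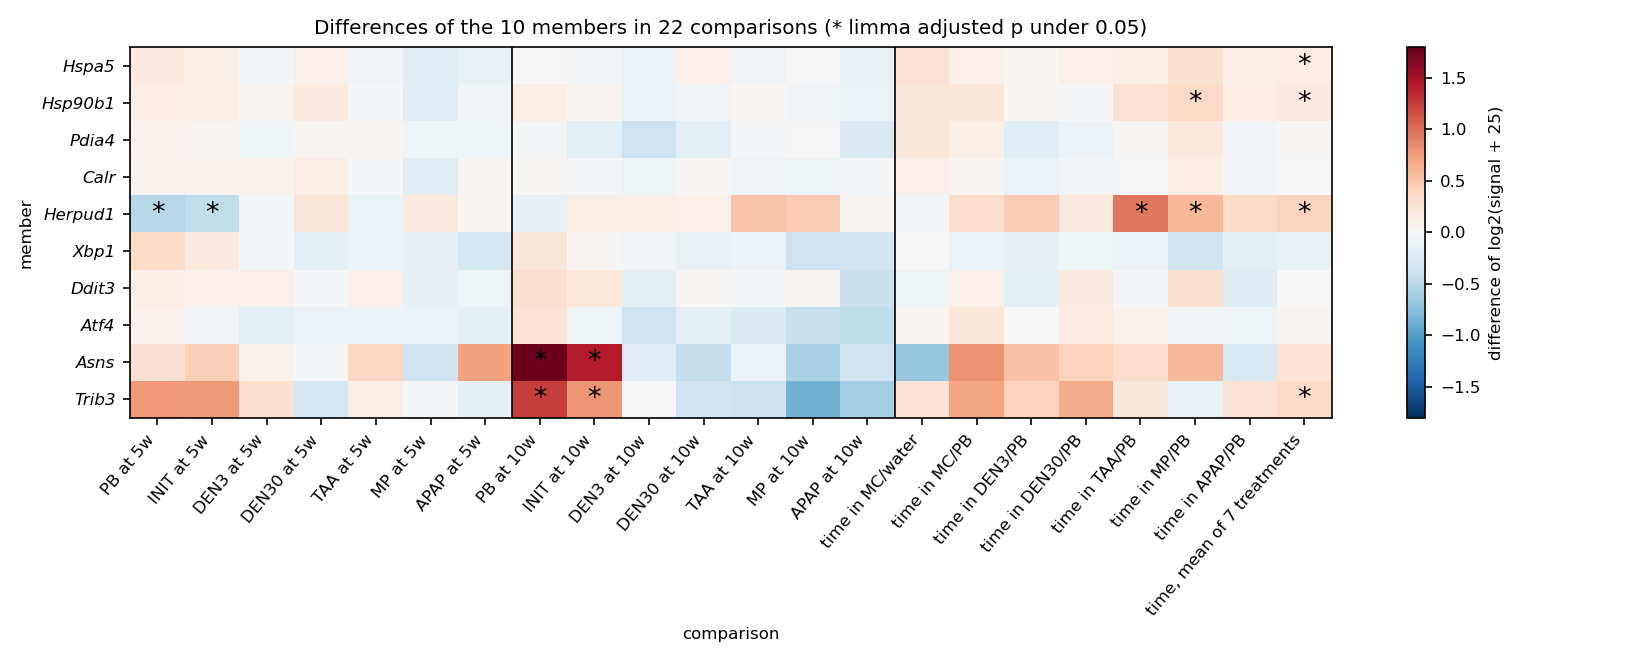
Differences on the log2(signal + 25) scale of the 10 members (rows) in 22 comparisons (columns): 7 between treatments at 5w, 7 at 10w, 7 between the weeks within a treatment, and the mean of those 7. Red is higher and blue lower in the group named; stars mark a limma adjusted p under 0.05 and fall on Herpud1 at 5w, on Asns and Trib3 at 10w, and on Herpud1, Hspa5, Hsp90b1 and Trib3 among the comparisons between weeks.

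Of the 4 chaperones, Hspa5, the master chaperone of the ER and the brake on its sensors, stayed within a narrow band. Its signals in MC/water were 17401, 18253, 14689 and 15441 at 5w and 19974, 20508, 18381 and 20071 at 10w. In MC/PB they were 19870, 16162, 19659 and 18348 at 5w and 19698, 19367, 19249 and 20538 at 10w. The groups overlapped at both weeks, while every 10w sample of MC/water lay above every 5w sample. PB differed from water by 0.17 ± 0.10 at 5w (95% interval -0.03 to 0.38, limma adjusted p = 0.59). Its 14 group means spanned 1.30-fold, from MP/PB at 5w to DEN30/PB at 10w, and no neighbours in that order were further apart than the spread within groups (SD 0.13 on the log2 scale).

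Hsp90b1, the ER paralogue of HSP90, had the same shape, with a span of 1.37-fold from MP/PB at 5w to TAA/PB at 10w. Pdia4 spanned 1.31-fold, with its lowest mean in DEN3/PB and its highest in MC/water, both at 10w. Calr, a calcium-binding lectin chaperone, spanned 1.23-fold, from MP/PB to DEN30/PB, both at 5w. In none of the 3 were neighbouring group means further apart than the SD within groups. Over the PB and initiated-group comparisons at both weeks, the 16 chaperone differences ran from -0.18 to 0.17, and none passed. Their 95% intervals lay between -0.43 and 0.38, and none had an unadjusted p under 0.05 by limma. Over the 10 comparisons of an initiator with MC/PB, the 40 chaperone differences ran from -0.37 to 0.16 and again none passed, with 1 at an unadjusted p under 0.05. That 1, the lowest, was Pdia4 in DEN3/PB at 10w, at -0.37 ± 0.16 (unadjusted p = 0.025). Its signals there were 6313, 8434, 6973, 9915 and 7157, against 8692, 11681, 8355 and 11287 in MC/PB, and the groups overlapped. Hspa5 in DEN3/PB at 10w, at 17189 to 18970, lay below MC/PB, at 19249 to 20538, with a difference of -0.11 ± 0.08 (unadjusted p = 0.17 by limma).

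Between the weeks Hspa5 and Hsp90b1 rose. Averaged over the 7 treatments, Hspa5 was higher at 10w by 0.14 ± 0.03 (adjusted p = 0.0011) and in 24 of 31 animals. Hsp90b1 was higher by 0.17 ± 0.04 (adjusted p = 0.00068) and in 25 of 31 animals. Pdia4 (0.02 ± 0.06, 18 of 31 animals) and Calr (0.01 ± 0.04, 16 of 31 animals) did not pass. This comparison called 24.7% of all genes and 4 of the 10 members. Within array set 1 the 2 rises were 0.09 and 0.12 (adjusted p = 0.26 and 0.11), and within set 2 they were 0.19 and 0.23 (adjusted p = 0.0066 and 0.016).

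Within single treatments a chaperone rise passed in MP/PB, for Hsp90b1. Its signals there were 9540, 11483, 10235, 8595 and 8478 at 5w and 12297, 14368, 13707, 10861 and 10993 in the same animals at 10w. Every animal rose, although the groups overlapped. The difference was 0.36 ± 0.10 (adjusted p = 0.044; 0.39 and 0.34 within the sets), and 2 of 10 members passed there against 1.34% of all genes. The call is at the edge of the threshold: it was lost in 7 of 10 fits that left out an array, namely 5w replicates 1, 3, 4 and 5 and 10w replicates 1, 2 and 3, with 0.31 to 0.43 as the range over all 10. With the animal as a random block, Hspa5 also passed in MP/PB (0.29 ± 0.07, adjusted p = 0.0044, against 0.057 without), as it did in the fit without 10w replicate 2 (0.34, adjusted p = 0.030), and in MC/water (0.27 ± 0.07, adjusted p = 0.049, against 0.32). Hsp90b1 passed with it in TAA/PB (0.27 ± 0.08, adjusted p = 0.033, against 0.19).

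**Figure D2:**
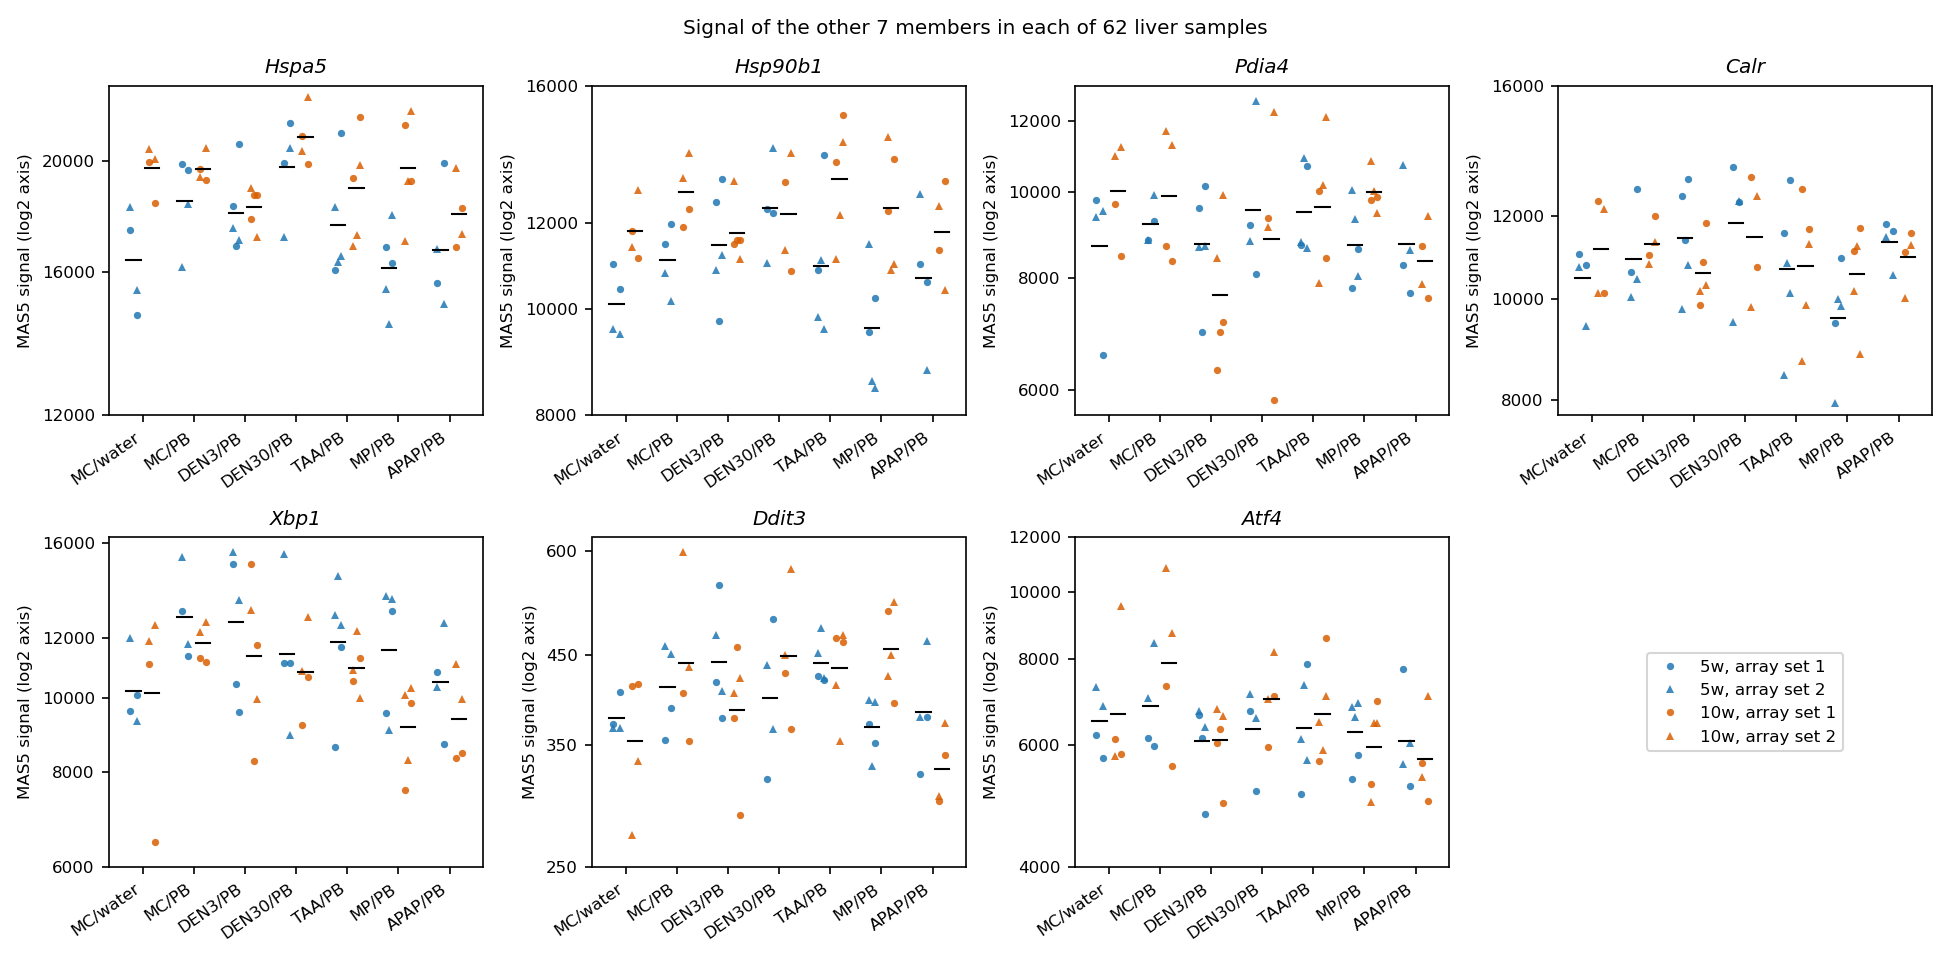
MAS5 signal (log2 axis) of Hspa5, Hsp90b1, Pdia4, Calr, Xbp1, Ddit3 and Atf4 in each of 62 liver samples, by treatment; blue is 5w, orange 10w, circles and triangles the 2 array sets, and black bars the geometric mean of a group. For Hspa5 and Hsp90b1 the orange bars lie above the blue ones in all groups but DEN30/PB for Hsp90b1. Treatments overlap at each week for most pairs. At 10w Xbp1 in MP/PB and APAP/PB and Hspa5 in DEN3/PB lie below MC/PB.

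Herpud1 encodes a membrane protein of the ER that brings misfolded proteins to the degradation machinery, and it is among the genes that ER stress raises most. It was lower with PB after 1 week of promotion. At 5w its signals were 3903, 4090, 3927 and 4356 in MC/water and 2716, 2841, 2714 and 3258 in MC/PB. All 4 animals on PB lay below all 4 on water. In the 5 initiated groups, which also received PB, the lowest signals were 2200 in DEN3/PB, 2894 in DEN30/PB, 1932 in TAA/PB, 3106 in MP/PB and 2717 in APAP/PB. The highest of all 27 animals on PB was 3781, below the lowest of those on water.

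The difference of MC/PB from MC/water was -0.50 ± 0.12 (adjusted p = 0.029), or 0.71-fold, and that of the initiated groups -0.45 ± 0.09 (adjusted p = 0.0032). These comparisons share the MC/water animals. Herpud1 was the 1 member of 10 called for PB at 5w, where 1.26% of all genes passed, and the 1 called for the initiated groups, where 4.44% did. It was also the 1 member to pass the F test over the 7 treatments at 5w (adjusted p = 0.018), as 2.21% of genes did. Within the array sets the PB difference was -0.52 and -0.47 (adjusted p = 0.32 and 0.30) and that of the initiated groups -0.45 in each (adjusted p = 0.15 and 0.057). The PB call, with 4 animals a side, was lost in 7 of 8 fits that left out an array, all but the one without MC/PB replicate 4, at differences from -0.56 to -0.46 and adjusted p up to 0.12. The call for the initiated groups held in all 27 such fits.

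At 10w that difference was not seen. The signals were 3416, 3626, 4848 and 4016 in MC/water and 3181, 4920, 3093 and 3350 in MC/PB, which overlapped, and the difference was -0.14 ± 0.22 (95% interval -0.59 to 0.30). For the initiated groups it was 0.10 ± 0.17. The difference between the PB effects at 10w and at 5w was 0.35 ± 0.26 and did not pass (adjusted p = 1.0), so the effects are not shown to differ between weeks.

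Herpud1 was the member that rose most clearly with time. In TAA/PB its signals went from 2834, 3020, 1932, 2615 and 2982 at 5w to 6792, 4729, 5482, 3674 and 5367 at 10w, in the same order of animals. Every 10w sample lay above every 5w sample. The difference was 0.94 ± 0.16, a 1.92-fold rise (adjusted p = 0.00029), and Herpud1 was the 1 member called among 1.76% of all genes. It was 1.37 within array set 1 and 0.66 within set 2 (adjusted p = 0.057 and 0.066), and the call held in all 10 fits that left out an array.

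In MP/PB Herpud1 went from 3348, 3216, 3106, 3267 and 3240 to 6076, 4099, 4036, 4521 and 6240, again with no overlap. That difference was 0.60 ± 0.16 (adjusted p = 0.044; 0.62 and 0.58 within the sets). It was lost in 8 of 10 fits that left out an array, namely each of the 5w replicates and 10w replicates 1, 4 and 5, with 0.51 to 0.67 as the range over all 10. In DEN3/PB the difference was 0.45 ± 0.16, which did not pass (adjusted p = 0.12). It passed with the animal as a random block (adjusted p = 0.027) and in the fit without 10w replicate 5 (0.64, adjusted p = 0.012). In MC/water it was -0.04 ± 0.18, and 1 of 4 animals rose. Over all treatments Herpud1 rose in 26 of 31 animals, by 0.40 ± 0.07 on average (adjusted p = 3.9e-06), with 0.40 and 0.43 within the array sets.

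Set by group mean, Herpud1 ran from TAA/PB at 5w (2677 ± 446, SD, n = 5) to TAA/PB at 10w (5209 ± 1139, n = 5). Next to the top was MP/PB at 10w (4995 ± 1080, n = 5), and then came MC/water at 5w (4069 ± 209, n = 4). The step from MC/water at 5w up to MP/PB at 10w was the 1 of 13 steps between neighbours larger than the SD within groups, at 0.27 against 0.26. Set against MC/PB at 10w, TAA/PB was higher by 0.51 ± 0.21 (unadjusted p = 0.018) and MP/PB by 0.46 ± 0.21 (unadjusted p = 0.035), and neither passed after adjustment (1.0 and 0.60).

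The 3 transcription factors passed no test between treatments. Xbp1 was highest in MC/PB at 5w, with signals of 13052, 15357, 11377 and 11803 against 9625, 12017, 10093 and 9334 in MC/water, and the groups overlapped. The difference of 0.33 ± 0.17 did not pass (adjusted p = 0.53). Its lowest group was MP/PB at 10w, with 7584, 10094, 9851, 8299 and 10334 against 11313, 12247, 11182 and 12621 in MC/PB. These groups did not overlap, yet the difference of -0.37 ± 0.16 did not pass (adjusted p = 0.57). Xbp1 was the one member that lay lower at 10w in most animals: 7 of 31 were higher, with a mean change of -0.14 ± 0.06. That change passed only with the animal as a random block (adjusted p = 0.035, against 0.11 without).

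Atf4, the factor that carries both stress routes to their targets, was nearly level. At 10w its signals were 6125, 5788, 5833 and 9542 in MC/water and 7306, 10852, 5604 and 8735 in MC/PB. 1 animal of MC/water lay well above the other 3, and the groups overlapped. The difference was 0.24 ± 0.17 at 10w (95% interval -0.11 to 0.60) and 0.07 ± 0.14 at 5w. Its lowest groups at 10w were APAP/PB (5656, 5402, 4984 and 7075) and MP/PB (5269, 4960, 6950, 6458 and 6473). Against MC/PB they differed by -0.46 ± 0.17 and -0.40 ± 0.16 (adjusted p = 0.63 and 0.54).

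Ddit3 (CHOP), the factor tied to cell death under lasting ER stress, gave low signals throughout, from 273 to 599. At 10w they were 412.8, 273, 415 and 335 in MC/water and 405, 599, 354 and 435 in MC/PB, which overlapped. PB differed from water by 0.12 ± 0.12 at 5w and 0.29 ± 0.16 at 10w (limma adjusted p = 0.83 and 0.42). The largest of its differences from MC/PB was in APAP/PB at 10w, at -0.40 ± 0.16 (adjusted p = 0.65), where the signals were 299.9, 304, 341 and 372. In the order of group means, no neighbours of Xbp1, Ddit3 or Atf4 were further apart than the SD within groups. Neither Ddit3 (0.01 ± 0.05) nor Atf4 (0.04 ± 0.06) changed detectably between weeks.

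Asns, asparagine synthetase, showed the largest difference of any member. At 10w its signals were 80.6, 83.3, 80.4 and 101 in MC/water and 431, 296, 379 and 322 in MC/PB. The groups were far apart, and all 27 animals on PB, at 158 to 478, lay above all 4 on water. The initiated groups had means of 309.96 ± 60.4 (SD, n = 5) in DEN3/PB, 268 ± 99.1 (n = 4) in DEN30/PB, 334 ± 87.4 (n = 5) in TAA/PB, 238 ± 80.7 (n = 5) in MP/PB and 284 ± 114 (n = 4) in APAP/PB. MC/PB had 357 ± 60.5 (n = 4) and MC/water 86.3 ± 9.88 (n = 4).

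The difference of MC/PB from MC/water at 10w was 1.77 ± 0.25 (adjusted p = 5.4e-05), and that of the initiated groups 1.43 ± 0.19 (adjusted p = 9.9e-06). These share the same 4 animals on water. Since 3 of those 4 signals were below 100, where the array measures poorly, the folds were also taken with signals under 100 set to 100: 3.52 for MC/PB and 2.73 for the initiated groups. These folds carry no offset. Taken without offset and without that floor, they were 4.11 and 3.18. The PB difference was 2.03 and 1.51 within the array sets (adjusted p = 0.016 and 0.15), and that of the initiated groups 1.54 and 1.33 (adjusted p = 0.011 and 0.028). Both calls held in each fit that left out an array. Asns was also the 1 member past the F test over the 7 treatments at 10w (adjusted p = 0.00043), as 2.9% of genes were.

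At 5w, after 1 week of PB, no such difference was seen. Signals were 112, 101, 184 and 259 in MC/water and 190, 185, 172 and 219 in MC/PB, and the groups overlapped. The difference was 0.27 ± 0.28 (95% interval -0.31 to 0.86). Among the 5w groups APAP/PB was highest, with 238, 734, 229 and 290, all above MC/PB. That difference was 0.72 ± 0.28 (unadjusted p = 0.017) and did not pass (adjusted p = 0.60).

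Followed in the same animals, Asns fell from 5w to 10w in all 4 of MC/water and rose in all 4 of MC/PB, by -0.69 ± 0.28 and 0.81 ± 0.28 on average. The rise in MC/PB passed with the animal as a random block (adjusted p = 0.032, against 0.16 without). It rose in 5 of 5 animals of DEN3/PB and of MP/PB, 4 of 5 of TAA/PB, 3 of 4 of DEN30/PB and 2 of 4 of APAP/PB. The difference of the PB effect between the weeks was 1.50 ± 0.39 (unadjusted p = 0.00035), which did not pass over all genes (adjusted p = 0.63, and 0.052 with the animal as a random block). Averaged over the treatments the change was 0.24 ± 0.10 (adjusted p = 0.068, and 0.022 with that block). It passed in 6 of 62 fits that left out an array, namely 5w MC/water replicate 4, 5w TAA/PB replicate 3, 5w APAP/PB replicate 2, 10w DEN3/PB replicate 2, 10w DEN30/PB replicate 4 or 10w APAP/PB replicate 1, at 0.26 to 0.29. In the order of its group means the step up from MC/water at 10w to MP/PB at 5w, at 0.60, was the 1 of 13 larger than the SD within groups (0.40).

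**Figure D3:**
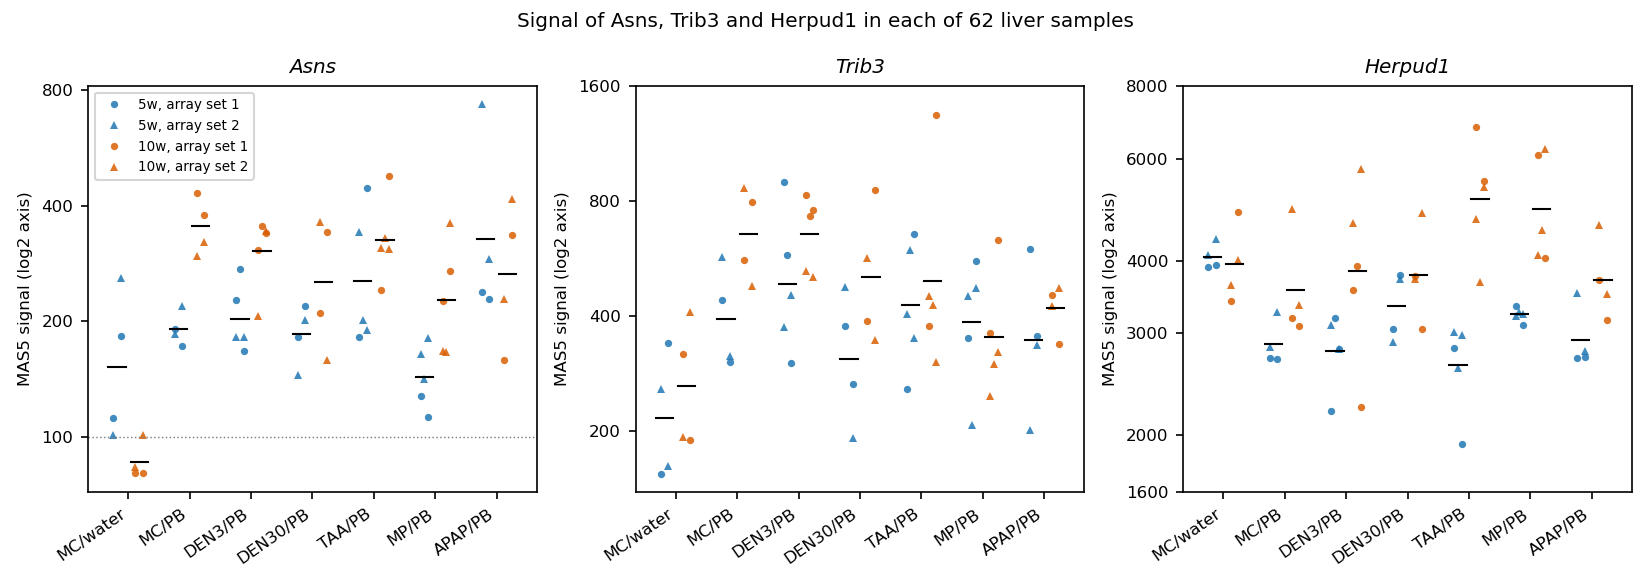
MAS5 signal (log2 axis) of Asns, Trib3 and Herpud1 in each of 62 liver samples, by treatment; blue is 5w, orange 10w, circles and triangles the 2 array sets, black bars the geometric mean of a group, and the dotted line a signal of 100. Asns in MC/water at 10w lies at 80.4 to 101, below every PB group, and Herpud1 in MC/water at 5w lies at 3903 to 4356, above every PB group of that week.

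Trib3 was higher with PB as well, with more spread within groups. At 10w its signals were 319, 193, 189 and 411 in MC/water and 562, 867, 796 and 479 in MC/PB. On the probe set used, all 4 animals on PB lay above all 4 on water. The difference was 1.24 ± 0.33 (adjusted p = 0.041), or 2.36-fold, and was 1.35 and 1.12 within the array sets (adjusted p = 0.37 and 0.22). With Asns this made 2 of 10 members called for PB at 10w, where 2.26% of all genes were.

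The initiated groups at 10w overlapped MC/water in Trib3, with 18 of the 27 animals on PB above all 4 on water. Their difference was 0.80 ± 0.25 (adjusted p = 0.046; 1.13 and 0.50 within the sets). With Asns, 2 of 10 members were called there too, against 8.88% of all genes. Both Trib3 calls sit at the threshold. That for PB was lost without MC/water replicates 1, 2 or 3 or MC/PB replicates 1, 2 or 3, at 1.09 to 1.32. That for the initiated groups was lost in 14 of 27 fits, with the highest adjusted p without MC/water replicates 2 or 3 (0.66 and 0.65, adjusted p = 0.20 each). Without MC/water replicate 1 it was 0.88 (adjusted p = 0.070). The other 11 losses, at adjusted p of 0.0501 to 0.0587, were without DEN3/PB replicates 1, 3 or 5, DEN30/PB replicates 2 or 3, TAA/PB replicate 4, MP/PB replicates 1 or 5 or APAP/PB replicates 1, 2 or 4.

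At 5w Trib3 gave 155, 258, 341 and 162 in MC/water and 440, 571, 303 and 314 in MC/PB, which overlapped. The difference was 0.79 ± 0.34 for PB (unadjusted p = 0.029, adjusted p = 0.37) and 0.77 ± 0.26 for the initiated groups (adjusted p = 0.10). Against MC/PB, Trib3 was lower at 10w in MP/PB (361, 248, 631, 300.5 and 322) by -0.85 ± 0.31 and in APAP/PB (455, 426, 339 and 475) by -0.62 ± 0.33, and neither passed (adjusted p = 0.50 and 0.84), although APAP/PB did not overlap MC/PB. Averaged over the treatments Trib3 was higher at 10w by 0.34 ± 0.13 (adjusted p = 0.042) and in 22 of 31 animals. That call was lost in 26 of 62 fits that left out an array, at 0.29 to 0.37 over all 62 and adjusted p up to 0.073, and it did not pass within either array set (0.41 and 0.30, adjusted p = 0.22 and 0.19). In a fit of all probe sets, the others for Trib3 gave 1.28 ± 0.39 and 1.13 ± 0.32 for PB at 10w. For the initiated groups they gave 0.70 ± 0.30 and 0.75 ± 0.25, the same direction without passing. The probe set used did not pass in that fit either (limma adjusted p = 0.051 for PB and 0.055 for the initiated groups). On both other probe sets MC/PB overlapped MC/water at 10w. No neighbouring group means of Trib3 were further apart than the SD within groups (0.52).

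Of 8 listed markers of bile duct and progenitor cells, 4 passed the signal minimum. Of these 4, only Epcam passed with PB, and it rose at 5w (0.80 ± 0.15) and at 10w (1.26 ± 0.24). The summed signal of the 7 with a probe set, Epcam among them, was 868 to 1127 in MC/water and 1205 to 1652 in MC/PB at 5w. At 10w it was 782 to 1285 and 1446 to 2269. None was at 0, and Krt7 was under 100 on every array of these groups. In the initiated groups the stellate cell markers Rgs5 and Col3a1 also rose, 2 of 10 tested at 5w and 2 of 9 at 10w, as did the cycling cell marker Mki67 at 5w and the hepatocyte marker Apoa1 at 10w, while Tat fell at both weeks and Kdr, of endothelial cells, at 10w. No marker of macrophages, T and NK cells, B and plasma cells or neutrophils passed in these comparisons. Hepatocyte markers summed to 353563 to 397327 in MC/water and 319145 to 396019 in MC/PB at 5w, and to 323293 to 378000 and 290856 to 385572 at 10w. The part of these cells in the member results was not tested.

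The genes around Asns and Trib3 were read from a list of other ATF4 and CHOP target genes, chosen, like the members, with earlier results of these data known. With PB at 10w, 3 of 28 measured rose and 0 fell, with a list median of 0.06 against -0.01 over all genes. They were Phgdh (2.36 ± 0.42, adjusted p = 0.0011) and Psat1 (1.34 ± 0.32, adjusted p = 0.018), which make serine, and Slc3a2 (0.87 ± 0.16, adjusted p = 0.0014), the shared chain of large amino acid transporters. Psph, of the same serine route, lay lower with PB at 10w (-0.66 ± 0.23) and did not pass (limma adjusted p = 0.14). Phgdh was at 44, 4, 24 and 58 in MC/water, below the level of 100, and at 280, 273, 220 and 225 in MC/PB, so its size is uncertain though the groups did not overlap. Psat1 read 176, 179, 230 and 390 in MC/water and 524, 553, 663 and 791 in MC/PB. Slc3a2 read 2001, 2436, 2540 and 2841 against 4275, 4688, 5009 and 4037.

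At 5w 1 of the 28, Slc3a2, rose with PB, by 0.59 ± 0.10 (adjusted p = 0.00043), from 2162, 2338, 2253 and 2452 to 3571, 3557, 3527 and 3288, and 0 fell. In the initiated groups the list split by direction. At 10w 5 of 28 rose and 6 fell, a share of 39.3% against 8.88% of all genes. The list was chosen with earlier results of these data known, so no excess is read from these shares. Phgdh (2.11 ± 0.32) and Slc3a2 (0.74 ± 0.12) rose, while Sesn2, a stress-induced brake on mTORC1, fell by 0.81 ± 0.11 and Chac1, a glutathione-degrading enzyme that CHOP and ATF4 raise, fell by 0.96 ± 0.15. At 5w 1 rose and 5 fell, among them Sesn2 (-0.54 ± 0.11), Aldh1l2 (-0.50 ± 0.14) and Cebpg (-0.21 ± 0.06). Psph fell in the initiated groups at 5w (-0.54 ± 0.16, limma adjusted p = 0.047) and at 10w (-0.58 ± 0.18, limma adjusted p = 0.037). Against MC/PB, Sesn2 was the 1 gene of the list to pass for any initiator, at 10w in MP/PB (-0.65 ± 0.13) and APAP/PB (-0.83 ± 0.14). Of 19 aminoacyl-tRNA synthetases, which ATF4 also raises, none passed for PB or the initiated groups by limma, with 1 and 2 of them at an unadjusted p under 0.05 at 5w and 6 and 5 at 10w.

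**Figure D4:**
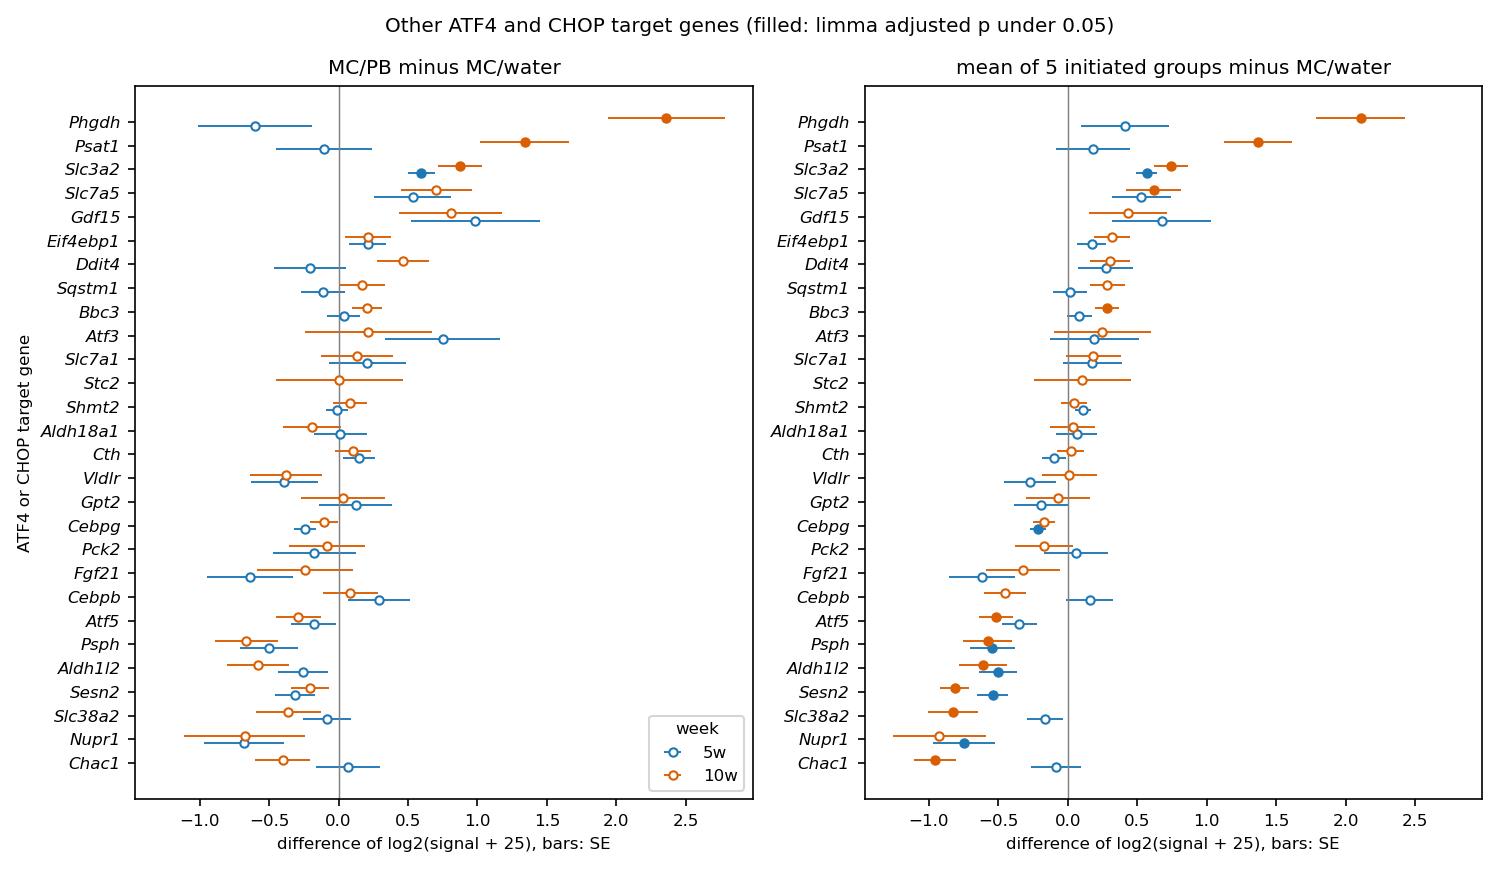
Differences on the log2(signal + 25) scale, with SE, of 28 other ATF4 and CHOP target genes at 5w (blue) and 10w (orange), for MC/PB minus MC/water (left) and for the mean of the 5 initiated groups minus MC/water (right). Filled points have a limma adjusted p under 0.05; at 10w Phgdh, Psat1 and Slc3a2 are filled to the right in both panels, and Chac1 and Sesn2 to the left in the right panel.

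The wider ER lists moved little with PB. Of 26 other ER chaperones and folding enzymes, 1 rose at 5w, Sil1, the nucleotide exchange factor of BiP (0.40 ± 0.09, adjusted p = 0.0096), and 0 passed at 10w by limma (3 at an unadjusted p under 0.05). Of 24 degradation and secretion genes 0 passed for PB (2 and 5 at an unadjusted p under 0.05), and of 18 stress sensors and regulators 0 passed (3 at each week). In the initiated groups 3 of 26 folding genes rose at each week, or 11.5%, where 4.44% of all genes were called in either direction at 5w and 8.88% at 10w. This list too was chosen with earlier results of these data known, so no excess is read from the share. The folding genes that rose at 5w were Sil1, Sdf2l1 (0.42 ± 0.10) and Pdia6, and at 10w Uggt1 (0.82 ± 0.19), Fkbp11 and Sil1. Of the 24 degradation and secretion genes Serp1, a translocon protein, rose at 5w (0.26 ± 0.07), and at 10w Serp1 and Ssr1 rose and Sec63 fell, the last 2 being translocon components as well. The kinase gene Eif2ak3, which encodes PERK, rose by 0.52 ± 0.11 in the initiated groups at 10w (adjusted p = 0.0034), and Creb3l3, a liver factor of the ATF6 kind, fell by 0.39 ± 0.08.

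Between the weeks, 7 of 26 folding genes rose and 0 fell, against 24.7% of all genes called in either direction. They were led by Dnajb9, a BiP cochaperone (0.52 ± 0.06, adjusted p = 4.1e-10), and Fkbp11 (0.32 ± 0.05). Of 24 degradation and secretion genes 4 rose and 2 fell, of 18 sensors and regulators 3 rose and 5 fell, of 30 ATF4 and CHOP targets 7 rose and 4 fell, and of 19 tRNA synthetases 8 rose and 0 fell. Eif2ak3 was among those that rose (0.40 ± 0.07), and so was Nars1, the asparaginyl-tRNA synthetase (0.21 ± 0.04). Markers of other cells changed beside them: 4 of 7 endothelial markers fell, 6 of 10 stellate markers fell and 1 rose, 3 of 9 hepatocyte and 2 of 4 B and plasma cell markers fell, and the neutrophil marker S100a9 rose. Of 4 bile duct and progenitor markers Epcam rose (0.35 ± 0.07) and Spp1 fell (-0.43 ± 0.11), and no macrophage, T and NK cell or cycling cell marker passed. Summed endothelial signals ran from 9446 to 13085 at 5w and from 7909 to 10981 at 10w, and stellate ones from 6909 to 13751 and from 7208 to 13898. None of these markers was at 0, and their part in the member changes was not tested.

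In the single treatments, MC/PB, DEN3/PB and APAP/PB called 1.31%, 2.9% and 1.47% of genes between the weeks and 0 of 10 members in each, with 2, 2 and 0 members at an unadjusted p under 0.05. MC/water called 0.0458% and DEN30/PB 0%, also with 0 members and with 2 and 0 at an unadjusted p under 0.05. For DEN30/PB limma gave 874 genes at an unadjusted p under 0.05.

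Set against MC/PB, which all of them share, the initiators called no member at either week. At 5w limma called 0.0381% of genes for DEN3, 0.114% for DEN30, 0.0191% for TAA, 0.0572% for MP and 0% for APAP, which had 754 genes at an unadjusted p under 0.05. At 10w it called 0.019%, 0.0284%, 0.00948%, 0.0853% and 0.0664% in the same order. The count of members was 0 of 10 in each of the 10 comparisons. Among the 100 member differences, from -0.85 to 0.72, 11 had an unadjusted p under 0.05, or 11% against 6% over all genes. Of these 11, 5 were in MP/PB at 10w: Herpud1 was higher there, and Xbp1, Atf4, Asns (-0.58 ± 0.24) and Trib3 were lower. At 10w the medians of the 10 members were -0.07 in MP/PB and -0.29 in APAP/PB, against 0.00 and 0.01 over all genes. Of the 10 members, 9 lay lower than in MC/PB in APAP/PB at 10w, in DEN3/PB at 10w and in MP/PB at 5w, and 8 in TAA/PB at 10w. The medians of the last 3 were -0.12, -0.15 and -0.06, against 0.02, 0.01 and 0.00 over all genes. In the other comparisons 3 to 5 members lay higher. All comparisons of a week share the MC/PB animals, and the share of all genes lying lower was not taken, so nothing is read from these counts.

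No difference of a treatment effect between the weeks passed either in the fit without the animal block. In the 6 such comparisons, 0% of genes were called for PB, 0% for DEN3, 0% for DEN30, 0% for TAA, 0% for MP and 0% for APAP, with 216 to 490 genes at an unadjusted p under 0.05, and so 0 of 60 member differences. With limma, 3 of the 60 had an unadjusted p under 0.05, or 5% against 2.99% over all genes. They were Asns for PB (1.50 ± 0.39) and for APAP (-1.09 ± 0.39), and Herpud1 for TAA (0.63 ± 0.24). With the animal as a random block, limma called 7 genes for PB, 1 each for TAA, MP and APAP, and 0 for DEN3 and DEN30. No member was among them.

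How the members vary between animals of one group was read from the signals after removing the group mean and the array set, over 31 animals a week. With 45 pairs at each week and p by 100000 permutations within groups, adjusted over 90 correlations, 4 pairs passed by Pearson's r at 5w and 3 at 10w, and 1 pair passed at both. That pair was Atf4 and Trib3, the factor and its target, at r = 0.61 at 5w (rho = 0.60, adjusted p = 0.0252 and 0.0285) and r = 0.64 at 10w (adjusted p = 0.035). At 10w its rank correlation did not pass (rho = 0.47, adjusted p = 0.15), and r was 0.44 without the 2 animals furthest from the median. Without removing the array set, r was 0.45 and 0.38.

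At 5w Trib3 also varied with Xbp1 (r = 0.80, rho = 0.80, adjusted p = 9e-04 each; r = 0.78 without 2 animals) and against Herpud1 (r = -0.62, rho = -0.65, adjusted p = 0.025 and 0.013; -0.55 without 2). At 10w these pairs gave 0.42 and -0.12 and did not pass. Hsp90b1 and Pdia4 went together at 5w (r = 0.77, rho = 0.77, adjusted p = 9e-04 each; 0.77 without 2), and Pdia4 and Calr at 10w (r = 0.72, rho = 0.69, adjusted p = 0.0022 and 0.013; 0.64 without 2). The last fell to 0.24 when the array set was not removed, with 0.70 and 0.71 within the sets. Herpud1 and Ddit3 went together at 10w (r = 0.72, rho = 0.72, adjusted p = 0.0022 and 0.0036; 0.67 without 2). Genes on 1 array share its RNA quality and scaling, and the part these play was not tested. Within the 2 array sets every one of these 7 correlations kept its sign.

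**Figure D5:**
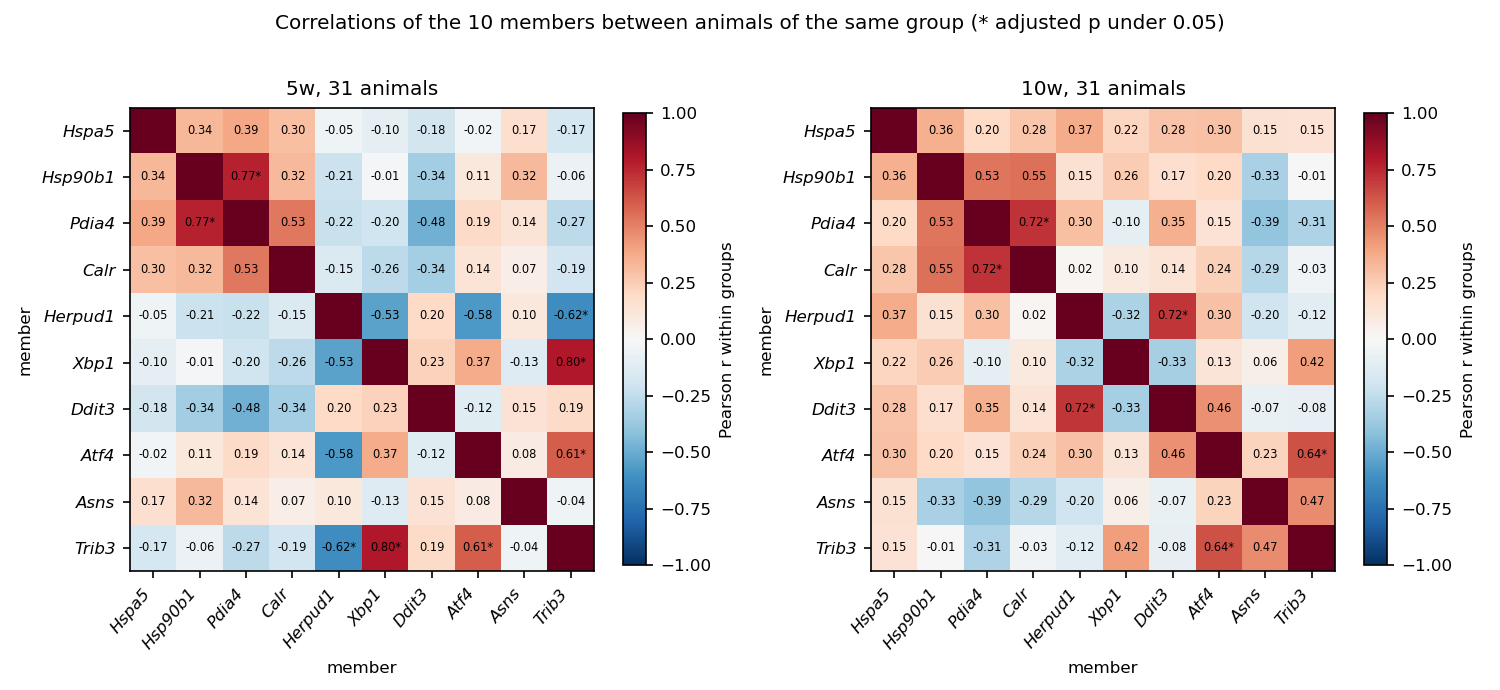
Pearson correlations between the members over 31 animals at 5w (left) and 31 at 10w (right), after removing group means and the array set; stars mark a permutation p, adjusted over 90 correlations, under 0.05. Atf4 and Trib3 are starred in both panels, Xbp1 with Trib3 (0.80) and Herpud1 with Trib3 (-0.62) in the left.

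Over the 14 group means, the gene most like Asns was Phgdh (r = 0.91), followed by Prmt7 and Ugdh (0.88 each). The gene most like Trib3 was Vnn1 (0.96), followed by Alg9 and Slc16a7 (0.92 each). Hspa5 was most like Slx4ip (0.91), with Stk17b (0.88) and Hsp90b1 (0.86) next, and Hsp90b1 was most like Inf2 (0.90), Hspa5 (0.86) and Nus1 (0.85). Herpud1 was most like Cdc42ep4 (0.93), Flywch2 (0.87) and Ell2 (0.86), Xbp1 like Zmat1 (0.92), Pot1 and Afmid (0.89 each), and Atf4 like Zfp146 (0.89), Uspl1 (0.85) and AA926063 (0.84). Calr was most like Rtp4 (0.85), Parp14 (0.84) and RT1-DMb (0.77), Pdia4 like Mrpl18 (0.86), Ggct and Tm6sf2 (0.76 each), and Ddit3 like Atg4a (0.86), Vcpkmt and Tsr2 (0.76 each). These are the 3 highest values among all genes tested for each member over 14 points, given as a description. For Asns, Phgdh is in the list of ATF4 targets; Hspa5 and Hsp90b1 are each among the other's 3.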

How the data were processed

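Liver RNA from 62 samples was hybridised to Affymetrix arrays; no source used here names the array model or scaling target. The submitters' processing notes name MAS5 5.0 for the deposited files, which hold signal intensities on a linear scale, and these were used as the authors scaled them. Groups and doses come from the labels. Symbols come from the table that pairs probe sets with genes, promoters from RefSeq (GRCr8).

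An offset of 25 was added before log2, a signal of 100 on 4 arrays was required, and 1 probe set per gene (highest mean over the arrays of the week or of both weeks, kept in the refits on fewer arrays) was fitted: 10491 genes at 5w, 10546 at 10w and 10910 over both weeks. Contrasts were fitted with limma 3.58.1 (R 4.3.3; lmFit, contrasts.fit, eBayes with trend) on the 31 arrays of a week, or on all 62 between weeks. The steps were tested on simulated data. The number of arrays limits the precision.

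The labels give both weeks the same animals. Residuals of the 31 same-numbered pairs across weeks correlated at 0.205 to 0.393, and differently numbered pairs within a treatment at -0.272 to 0.104. Same-numbered pairs also share their array set, which was not removed from these residuals. Some differently numbered pairs share an array set too, such as replicates 1 and 3. Within a treatment, all 62 arrays correlated best with the same number from the other week. Different animals with the same number had medians of 0.108 within 5w and 0.109 within 10w, and reached 0.313 within 10w. That highest value lies inside the range of the same-numbered pairs across weeks, and the pairing was not tested further. The animal as a random block (consensus correlation 0.3155) was an alternative. Array sets were read from the data.

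The text names all 10 members, up to 4 genes with the smallest p of each other list, and the 3 genes most like each member. Psph is named besides, next to Phgdh and Psat1. The members and lists were chosen with earlier results of these data known. Alternatives are under the closing section.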

Additional observations from a re-analysis of the deposited data

Results flagged for a closer look

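Among the 140 sets of a member's log2 values in a group, 9 sets, in 6 of the 14 groups, had 1 sample far from the others; chance does this in about 1 set in 20, or 7 sets here. They were Hsp90b1 in DEN3/PB replicate 2 at 10w (13091, others 11120 to 11570), Pdia4 in MC/water replicate 3 at 5w (6567, others 9377 to 9793), and Herpud1 in APAP/PB replicate 2 at 5w (3521, others 2717 to 2802). Ddit3 in MC/water replicate 3 at 5w read 406 (others 367 to 371), and Atf4 in DEN3/PB replicate 5 at 5w read 4768 (others 6153 to 6728). Atf4 in MC/water replicate 4 at 10w read 9542 (others 5788 to 6125), and Trib3 in TAA/PB replicate 3 at 10w read 1345 (others 304 to 451). Asns read 101 in MC/water replicate 4 at 10w (others 80.4 to 83.3) and 206 in DEN3/PB replicate 2 at 10w (others 307 to 353). The calls on Asns at 10w held without each of these arrays.

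The change of Asns from 5w to 10w went one way in every animal of MC/PB and the other way in every animal of MC/water, at means of 0.81 and -0.69, a difference of 1.50. Tested in the fit over all genes, that difference did not pass (limma adjusted p = 0.63).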

How the results depend on the processing

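None of the 13 called member differences changed sign under the alternatives; 126 of 182 refits kept the call and 56 lost it. Asns in the initiated groups at 10w and Herpud1 between weeks over the treatments kept it in each. Asns for PB at 10w, Herpud1 for the initiated groups at 5w and for time in TAA/PB, and Hspa5 and Hsp90b1 over the treatments lost it within 1 or both array sets, where fewer arrays were fitted, and in no other setting. The count of members called became, for PB at 5w (1 in the report), 0 within array set 1, within set 2 and with signals under 100 set to 100, an alternative chosen after seeing the data that tests all 14217 genes, and 0 to 1 with an array left out. For the initiated groups and the F test at 5w, and the F test at 10w (1 each), it became 0 within either set. For PB at 10w (2) it became 1 without the filter, with all probe sets, within set 1, without the trend and with signals under 100 set to 100, 0 within set 2, and 1 to 2 with an array left out. For the initiated groups at 10w (2) it became 1 under these settings, within set 2, with an offset of 100 and with only the compared groups, and 1 to 2 with an array left out. For time in MP/PB (2) it became 0 without the filter, with quantile normalization, all probe sets, only the compared groups, within either set, without the trend and with signals under 100 set to 100, and 0 with an array left out as the lowest. For time in TAA/PB (1) it became 0 within either set, and for the mean over treatments (4) it became 1 within set 1. Time in MC/PB (0) gave 1 with only the compared groups, and time in DEN3/PB (0) gave up to 1 with an array left out.

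With the replicate block, which is the animal between weeks, the count became 1 for time in MC/water, MC/PB and DEN3/PB (0 each in the report) and 2 for TAA/PB (1). Within a week the same number names different animals, whose residuals correlated at medians of 0.108 at 5w and 0.109 at 10w (lowest -0.115), so the numbers pair no animals there; the replicate block changed no count of members within a week. Over all genes, that block moved the calls for PB at 10w from 238 to 389 and for the F test at 10w from 306 to 466. As the animal, it moved those between weeks from 5 to 154 (MC/water), 143 to 528 (MC/PB), 316 to 962 (DEN3/PB), 0 to 159 (DEN30/PB), 192 to 655 (TAA/PB), 146 to 534 (MP/PB) and 160 to 691 (APAP/PB). Averaged over the treatments, the calls between weeks went from 2692 to 3718. Within array sets 1 and 2 the calls numbered 18 and 20 (132 in the report) for PB at 5w, 147 and 135 (466) for the initiated groups at 5w, 51 and 36 (238) for PB at 10w, 134 and 292 (936) for the initiated groups at 10w, and 1057 and 1726 (2692) between weeks over the treatments.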
